A study of Mus musculus with 9 samples.

Results

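H3K27ac regions that lay at the ends of protein-coding genes and carried no H3K4me3 peak were examined in mouse bone marrow progenitors with and without Dek. Peaks of the H3K27ac lists from cKO and fl cells were merged where they overlapped by 1 bp or more, on chromosomes 1 to 19. A merged region was kept when it lay within 1 kb of either end of a protein-coding gene and overlapped no H3K4me3 peak of cKO or fl cells. The members were thus chosen by measured peaks of both marks, and the absence of H3K4me3 at them is no finding. The rule kept 1442 of 16611 H3K27ac regions. They are called H3K4me3-free gene-end regions here. They were set against 6889 gene-end regions that did overlap H3K4me3 and against 6948 regions away from gene ends without H3K4me3.

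The series holds CUT&Tag peak lists, in which an antibody tethers a transposase that cuts and tags DNA beside a histone mark or protein. The cKO mice carried Dekfl/fl,Tie2-Cre and the fl mice carried Dekfl/fl with no Cre. All were C57BL/6 mice at 12 weeks of age, without a stimulus. H3K27ac and H3K4me3 were profiled in about 50000 LSK cells (Lin-Sca-1+c-Kit+, the stem and progenitor gate) in 1 cKO and 1 fl library each, H3K9ac in about 20000 HSC (LSK cells that are also CD48- and CD150+) in 1 cKO and 1 fl library, and DEK in 3 fl HSC libraries. Tie2-Cre is active in endothelium and in the blood lineage that descends from it, so both carry the deletion in such mice. The peak lists hold no measure of the Dek deletion itself, and the labels do not say whether the 3 DEK libraries came from separate mice.

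H3K27ac is an acetylation mark of active promoters and enhancers. H3K4me3 is laid down at promoters, mainly at CpG islands, and most active promoters carry both marks. DEK is a chromatin-bound protein known to bind histones and to affect their acetylation. Promoters of developmental genes are often CpG-rich and silent in blood.

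The H3K27ac lists held 16331 cKO and 10494 fl peaks, while the H3K4me3 lists were near equal, with 10159 cKO and 10514 fl peaks. Read depth is unknown, because the lists carry no read counts. With 1 library for each genotype and mark there is no replicate check of any genotype difference, and every interval below is a 95% exact binomial interval that covers counting error only. Of 18 genes that mark LSK cells or HSC, 12 had a cKO and 13 an fl H3K4me3 peak at an end, and 10 had a cKO but 1 an fl H3K27ac peak. Kit, which encodes the sorted receptor, had H3K4me3 in both genotypes and H3K27ac in the cKO list. Ly6a, which encodes Sca-1, had neither mark in either. Of 6 endothelial markers none had H3K4me3 in either genotype, and 1 (Kdr) had H3K27ac, in the cKO list. Of 6 stromal markers, 3 had cKO and 0 had fl H3K27ac, against 0 with cKO and 1 with fl H3K4me3. Of 16 markers of mature blood cells, 4 had cKO and 3 had fl H3K27ac, and 3 had cKO and 3 had fl H3K4me3. Of 8 markers of other tissues, 2 had cKO and 1 had fl H3K27ac, and 1 had cKO and 1 had fl H3K4me3. In such bulk samples, fewer cells of a type and less signal per cell cannot be told apart.

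The promoters on which the results turn are printed first, as the 250 bases before an annotated start, in gene direction, with every CG in capitals. Sequences are from RefSeq (GRCm38.p6). Dact3 (chr7:16875067-16875316, plus strand), a gene of WNT pathway regulation, had one of the 10 strongest cKO-only regions. Map2 (chr1:66175079-66175328, plus strand) encodes a neuronal microtubule protein and Isl1 (chr13:116309689-116309938, minus strand) a developmental homeobox factor. Hlf (chr11:90390918-90391167, minus strand) encodes a transcription factor typical of HSC, and Kdr (chr5:75978456-75978705, minus strand) the VEGF receptor of endothelium, here at a start inside the outermost one annotated. All of these were cKO only, and Hlf had an H3K4me3 peak within 1 kb of its region.
Dact3: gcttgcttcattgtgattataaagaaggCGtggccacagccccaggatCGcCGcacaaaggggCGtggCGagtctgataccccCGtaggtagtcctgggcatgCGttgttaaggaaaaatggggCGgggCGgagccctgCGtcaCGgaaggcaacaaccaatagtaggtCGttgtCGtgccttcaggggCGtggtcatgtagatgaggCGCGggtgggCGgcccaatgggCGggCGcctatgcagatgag
Map2: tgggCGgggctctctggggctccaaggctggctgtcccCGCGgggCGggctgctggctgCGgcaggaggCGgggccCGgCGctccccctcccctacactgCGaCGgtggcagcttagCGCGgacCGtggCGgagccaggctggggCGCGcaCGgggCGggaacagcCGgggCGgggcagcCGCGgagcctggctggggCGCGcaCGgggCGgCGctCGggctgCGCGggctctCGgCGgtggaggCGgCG
Isl1: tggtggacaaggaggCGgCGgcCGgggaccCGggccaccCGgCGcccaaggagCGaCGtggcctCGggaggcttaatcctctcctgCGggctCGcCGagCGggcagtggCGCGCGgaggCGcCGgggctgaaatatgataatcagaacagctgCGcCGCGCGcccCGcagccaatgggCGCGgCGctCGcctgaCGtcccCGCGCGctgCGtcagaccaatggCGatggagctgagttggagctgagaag
Hlf: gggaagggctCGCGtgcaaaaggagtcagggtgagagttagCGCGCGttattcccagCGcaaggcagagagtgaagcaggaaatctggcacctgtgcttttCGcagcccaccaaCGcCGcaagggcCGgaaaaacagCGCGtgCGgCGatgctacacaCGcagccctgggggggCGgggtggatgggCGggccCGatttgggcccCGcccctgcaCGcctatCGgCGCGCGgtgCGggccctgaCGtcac
Kdr: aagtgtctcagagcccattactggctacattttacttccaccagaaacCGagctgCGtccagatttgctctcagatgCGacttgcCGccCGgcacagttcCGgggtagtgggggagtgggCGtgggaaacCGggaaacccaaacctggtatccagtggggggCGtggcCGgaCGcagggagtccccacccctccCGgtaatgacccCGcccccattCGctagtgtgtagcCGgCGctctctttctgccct
Lck, the T cell kinase (chr4:129573642-129573891, minus strand), is shown as an fl-only promoter with few CG, and Gm3417 (chr17:14978813-14979062, minus strand) as the promoter of one of the strongest shared regions.
Lck: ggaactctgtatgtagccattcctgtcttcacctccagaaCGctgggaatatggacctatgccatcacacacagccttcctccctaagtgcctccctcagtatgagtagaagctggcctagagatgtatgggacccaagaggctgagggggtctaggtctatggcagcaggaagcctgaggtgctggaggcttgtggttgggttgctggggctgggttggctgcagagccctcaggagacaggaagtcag
Gm3417: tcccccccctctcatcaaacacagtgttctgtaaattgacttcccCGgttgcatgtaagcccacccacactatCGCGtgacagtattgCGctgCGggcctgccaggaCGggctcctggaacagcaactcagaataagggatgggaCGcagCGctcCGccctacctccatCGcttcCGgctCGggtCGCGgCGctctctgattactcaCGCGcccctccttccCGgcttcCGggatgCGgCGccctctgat
The promoter window of Gm3448 (chr17:15010185-15010434, minus strand) was identical to that of Gm3417 at 250 of 250 bases. The windows held 34 CG in Map2, 33 in Isl1, 26 in Hlf, 19 in Dact3 and 16 in Kdr, against 1 in Lck. Gm3417 held 21.

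H3K4me3-free gene-end regions were found almost entirely in the cKO list. Of the 1442, 1250 were cKO only (86.7%, 84.8 to 88.4), 158 were shared (10.96%, 9.39 to 12.7) and 34 were fl only (2.36%, 1.64 to 3.28). Over all H3K27ac regions the shares were 41.5% cKO only, 51.3% shared and 7.24% fl only. Over all gene-end regions, with or without H3K4me3, they were 51.6%, 47.3% and 1.02% in the same order. Gene-end regions with H3K4me3 were cKO only in 3052 of 6889 cases (44.3%, 43.1 to 45.5). Regions away from gene ends without H3K4me3 were cKO only in 1931 of 6948 cases (27.8%, 26.7 to 28.9) and fl only in 1098 (15.8%, 15.0 to 16.7). The intervals of the cKO-only share did not overlap between the 3 kinds of region.

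**Figure D1:**
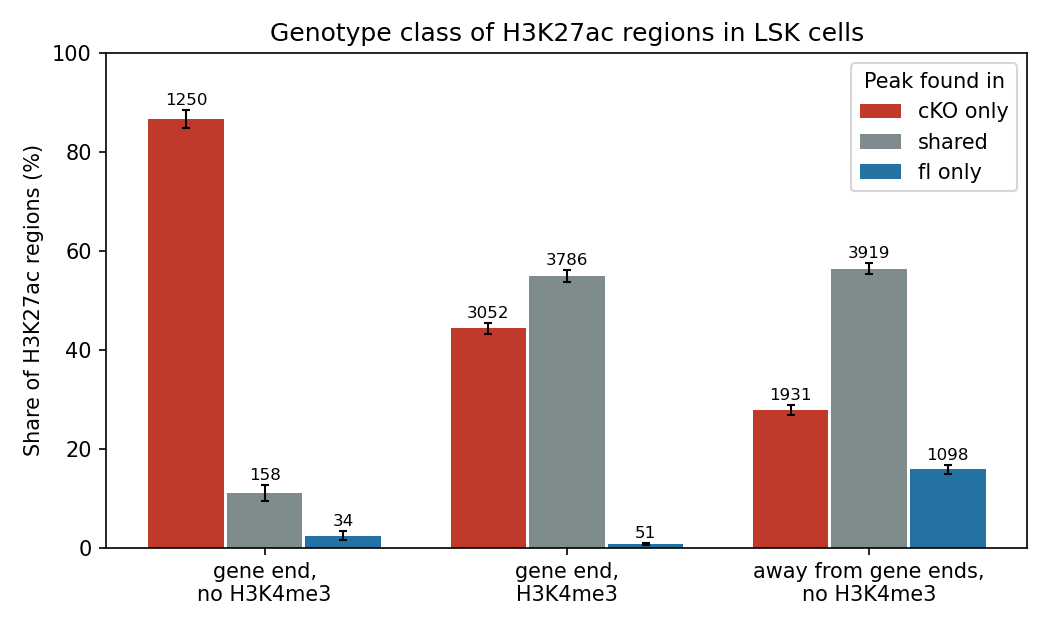
Share (%) of H3K27ac regions found in cKO only, in both genotypes or in fl only, for gene-end regions without H3K4me3, gene-end regions with it and regions away from gene ends without it. Bars are shares, numbers are region counts and error bars are 95% exact binomial intervals; the cKO-only bar is at 86.7% in the first kind, 44.3% in the next and 27.8% in the last.

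The unequal list lengths bore directly on this share. With the cKO list kept to as many of its strongest peaks as the fl list held, 414 regions were left, of which 53.1% were cKO only and 20.8% fl only. Gene-end regions with H3K4me3 were then cKO only in 33.5%. Equal length removes the weakest cKO peaks, where most of the H3K4me3-free regions lay, as the ranks show.

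The regions ranked low in the cKO list. The strength used here is the authors' −log10 q (column 9 of the peak list), which was ranked within a list. Where values of the cKO and fl lists stand side by side, no direction between the genotypes can be read from them, since the lists differ in length and the depths are unknown. Of 1408 regions with a cKO peak, 168 (11.9%, 10.3 to 13.7) were above the middle of the cKO list and 721 (51.2%, 48.6 to 53.8) in its weakest 20%. The strongest 10% held 18 (1.28%). The median cKO-only region lay 83.1% of the way down the list, with a −log10 q of 8.93 (quartiles 6.97 and 12.2). Gene-end regions with H3K4me3 that were cKO only lay at 56.3%. Shared H3K4me3-free regions lay at 49.7% of the cKO list and 76.3% of the fl list, and fl-only ones at 80.8% of the fl list.

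The cKO-only share was also set out within each decile of cKO peak strength. In decile 7 of the cKO list, counted from the strongest, 88.6% of H3K4me3-free gene-end regions were cKO only (83.0 to 92.9), against 72.3% (68.8 to 75.6) of gene-end regions with H3K4me3 and 37.6% (33.5 to 42.0) of regions away from gene ends. In the weakest decile the shares were 98.1%, 89.6% and 72.4% in that order. In decile 1, which held 18 of the regions, 3 were cKO only (16.7%, 3.58 to 41.4), and this interval overlapped that of gene-end regions with H3K4me3 (13.3%, 9.26 to 18.2). The cKO-only share was above that of both other kinds in all 10 deciles, although at gene ends the intervals with and without H3K4me3 overlapped in deciles 1, 2 and 5.

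**Figure D2:**
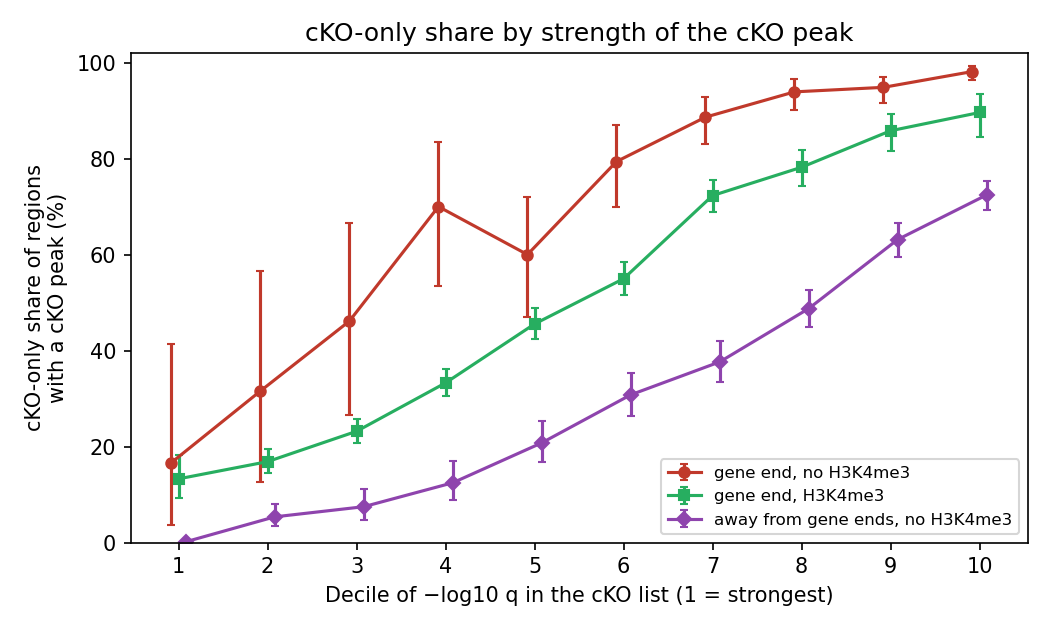
Share (%) of regions with a cKO peak that had no fl peak, by decile of the cKO peak's −log10 q (1 is the strongest). Points are shares and bars 95% exact binomial intervals; gene-end regions without H3K4me3 run from 16.7% in decile 1 to 98.1% in decile 10, with wide intervals at the strong end where they are few.

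The rule has limits of distance and of overlap, and the values beside them are given as a description. The 35 members in the last 100 bp of the 1 kb window had a median cKO −log10 q of 8.98 and 32 were cKO only, against 9.75 and 22 of 26 in the next 100 bp outside it. The 21 members within 100 bp of an H3K4me3 peak had a median of 10.5 and 19 were cKO only. Of 59 gene-end regions that overlapped H3K4me3 by 100 bp or less, and so were not kept, 50 were cKO only, with a median of 9.88.

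Most of the regions marked gene starts. The strand, and so which end is the start, was known for 1114 regions, of which 1008 (90.5%, 88.6 to 92.1) lay at a start and 106 (9.52%) at a 3′ end. With H3K4me3, 5530 of 5587 (99.0%) lay at a start. The cKO-only share was 87.0% at starts (84.8 to 89.0) and 73.6% at 3′ ends (64.1 to 81.7). The summit of the starts' regions lay a median of 186 bp inside the gene, against 161 bp with H3K4me3, and within 500 bp of the start in 78.8%, against 85.8%. The region covered the gene end itself in 652 of 1442 (45.2%), against 71.9% with H3K4me3.

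**Figure D3:**
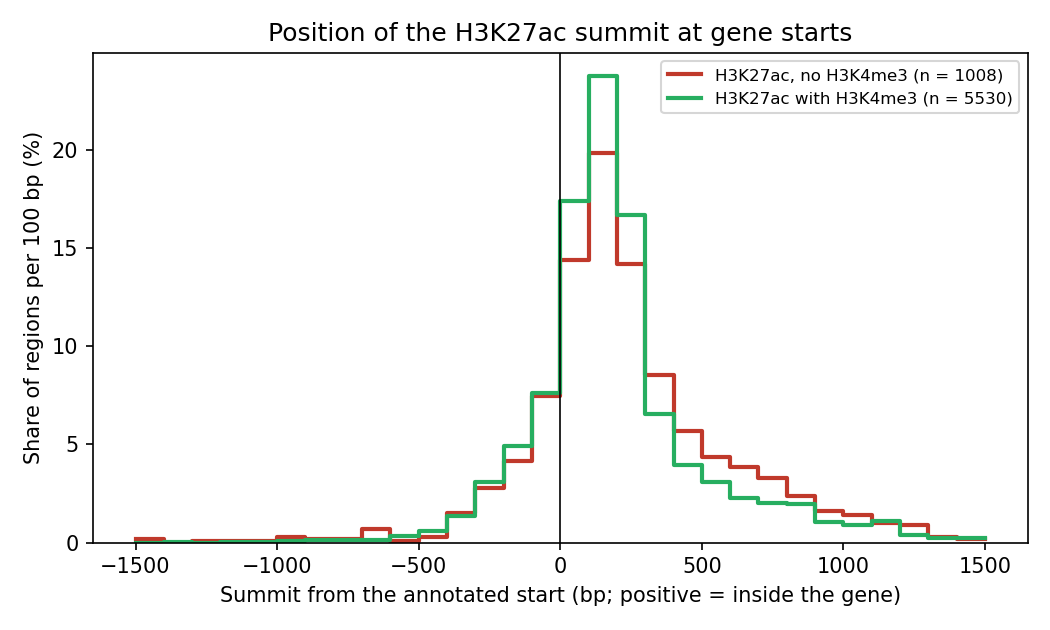
Share (%) of start regions by the distance of the H3K27ac summit from the annotated start, in steps of 100 bp, positive inside the gene. The 1008 regions without H3K4me3 and the 5530 with it share a peak just inside the gene; the line without H3K4me3 is lower there and higher further in.

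The regions belonged to 1562 of 20665 protein-coding genes (7.56%): 1338 with cKO-only regions (6.47% of all genes), 188 with a shared region (0.910%) and 36 with fl-only regions (0.174%). H3K4me3 lay somewhere in the gene, or within 1 kb of it, in 298 (19.1%, 17.2 to 21.1), against 10730 of all genes (51.9%). The rule bears on this share, since it asks for no H3K4me3 at the region itself, and 212 of the 298 had the peak within 1 kb of an end. At 3′ ends only, 69 of 142 genes (48.6%) carried H3K4me3 elsewhere, against 167 of 1075 genes (15.5%) with a region at the start. Besides, 110 genes (7.04%) also had an H3K27ac region with H3K4me3 at an end. A region at the ends of 2 or more genes was counted for each of them, as was the case for 151 of 1442 (10.5%). The nearest H3K4me3 peak was a median of 41551 bp away, with quartiles of 14343 and 116323 bp, and 96 regions (6.66%) had one within 1 kb.

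The promoters were CpG-rich. Of the 1442 regions, 746 (51.7%) overlapped a promoter window, and the promoter values of H3K4me3-free regions cover these alone. The CpG ratio is the number of CG over that expected from the C and G content of the 300-base RefSeq window from 250 bases before to 50 after a start, and a ratio of 0.6 or more is a usual mark of a CpG island. The 817 promoters that an H3K4me3-free region overlapped had a median ratio of 0.763 and 24 CG, and 80.5% (77.7 to 83.2) reached 0.6. Promoters that a gene-end region with H3K4me3 overlapped had a median of 0.853 and 26 CG, and 91.6% reached it. For both groups H3K4me3 was read from the region and not from the promoter window. Promoters with neither mark had a median of 0.242 and 4 CG, and 14.1% (13.4 to 14.8) reached it. Over all promoters 48.9% did. Promoters with H3K4me3 and no H3K27ac had a median of 0.696, and 64.0% reached 0.6. The few fl-only regions had a median of 0.398 over 11 promoters with a median of 11 CG, and Lck, printed above with 1 CG, was far below that. The share with a ratio of 0.6 or more was 80.6% for cKO-only (77.4 to 83.4), 83.8% for shared (75.6 to 90.1) and 45.5% for fl-only regions (5 of 11, 16.7 to 76.6), and the last 2 intervals overlapped.

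**Figure D4:**
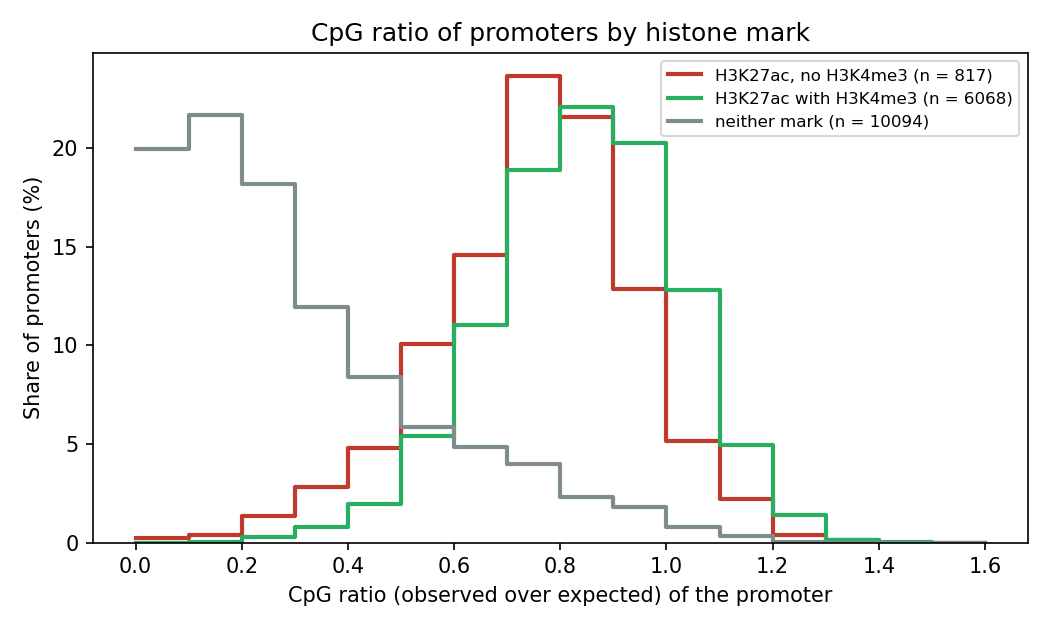
Share (%) of promoters by CpG ratio, in steps of 0.1, for 817 promoters overlapped by an H3K4me3-free gene-end region, 6068 overlapped by a gene-end region with H3K4me3 and 10094 with neither mark. The first line lies near the next, with medians of 0.763 and 0.853, and apart from that with neither mark, with a median of 0.242.

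Of the 6 short motifs searched, the ETS core differed most in percentage points from promoters of gene-end regions with H3K4me3. CCGGAA, the core bound by ETS factors, was present on either strand in 15.3% of promoters of H3K4me3-free regions (12.9 to 18.0). It was present in 34.0% (32.8 to 35.2) of those of regions with H3K4me3 and 19.1% of all promoters. TATAAA was present in 7.34% (5.65 to 9.35), against 4.28% with H3K4me3 and 12.7% of all. CCAAT was present in 31.6%, against 37.3% and 38.1%, AGATAA (the GATA factor motif) in 4.04%, against 3.54% and 9.57%, and TGTGGT (RUNX) in 9.55%, against 10.4% and 14.8%. CANNTG, the E-box, was present in 64.9%, against 58.0% and 68.7%. Each motif was counted on its own on both strands, and a match is letters in a window, not a bound site.

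Genes of other tissues had such regions, most of them cKO only, as were 1338 of all 1562 genes with a region (85.7%). The cKO-only counts of each list and family are to be read beside this share. Of 60 developmental transcription factors, 13 (21.7%, 12.1 to 34.2) had a region, 12 of them cKO only, beside 7.56% of all genes, and 3 of the 60 carried H3K4me3. Of 42 neural genes 9 (21.4%, 10.3 to 36.8) had one, all cKO only, and none of the 9 carried H3K4me3. Of 31 genes of kidney, lung and skin 6 had one, all cKO only. Genes of muscle and heart (2 of 31), of liver, pancreas and gut (2 of 32) and of the germ line (2 of 23) were near the share of all genes. H3K4me3 lay in the gene, or within 1 kb of it, in 1 of the 42 neural genes, against 51.9% of all genes. The rule drops regions with H3K4me3, so lists with little of it are favoured over all genes. A share over genes without H3K4me3 was not computed.

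Apart from Foxj1, the genes named here lay in the weaker part of their lists. Map2 had a cKO −log10 q of 10.2, which put it 77.3% down the cKO list, and no fl peak. Tubb3, the neuronal tubulin, had 10.2 as well, and Slc17a7, the vesicular glutamate transporter, had 9.25. Neurod2 (9.87) and Neurog2 (5.78) encode neurogenic factors, and Olig1 (7.22) an oligodendrocyte factor. Among the developmental factors Isl1 had 9.88, Dlx1 10.1, Gsc 9.76 and Hoxd13 3.97, the last of them 99.7% down the list. Tlx3 was the exception to the direction, with an fl peak of 5.37 and no cKO peak. In the kidney, lung and skin list Foxj1, the factor of ciliated cells, was the strongest with 19.6, 46.5% down the list, and Cdh1, which encodes E-cadherin, had 8.54. In the germ line list Dazl had 12.2 and Ddx4 5.52.

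With the lists kept to equal length, these genes dropped out. Of the 34 genes of the 6 lists above, 2 remained (Foxj1, cKO only, and Tlx3, fl only), and 0 of the 9 neural genes did. Over all 20665 genes, 473 had a region with equal lists, in place of 1562, and equal-list counts below are to be read beside this fall. The 36 histone genes described next changed to 33.

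Of the gene families counted, histones had the largest share. Of 78 histone genes 36 had an H3K4me3-free region (46.2%, 34.8 to 57.8), 17 with cKO-only and 19 with shared regions, and none was fl only. Nearly all are replication-dependent histones, which lie in clusters where 1 region often served neighbouring genes. H3K4me3 lay in the gene, or within 1 kb of it, in 38 of the 78 histone genes and in 11 of the 36 with a region. With no H3K4me3 peak allowed within 1 kb of a region, 28 genes were left. Clusters held 6 members at chr13:21716437-21833586, 5 at chr13:23745232-23762480 and 4 at chr13:23533849-23576103. The region of H2bc23, H2ac23 and H4c17 had a −log10 q of 33.4 in cKO cells and 10.7 in fl cells. The region of H3c13 and H2bc18 had 28.3 in cKO cells and 17.2 in fl cells, and an H3K4me3 peak lay within 1 kb of it. The region of H2ac11 and H2bc11 had 25.5 in cKO cells and no peak in fl cells. Because these genes resemble each other, reads may be split between them, and 3 of the histone regions lay over copied promoters as defined below.

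**Figure D5:**
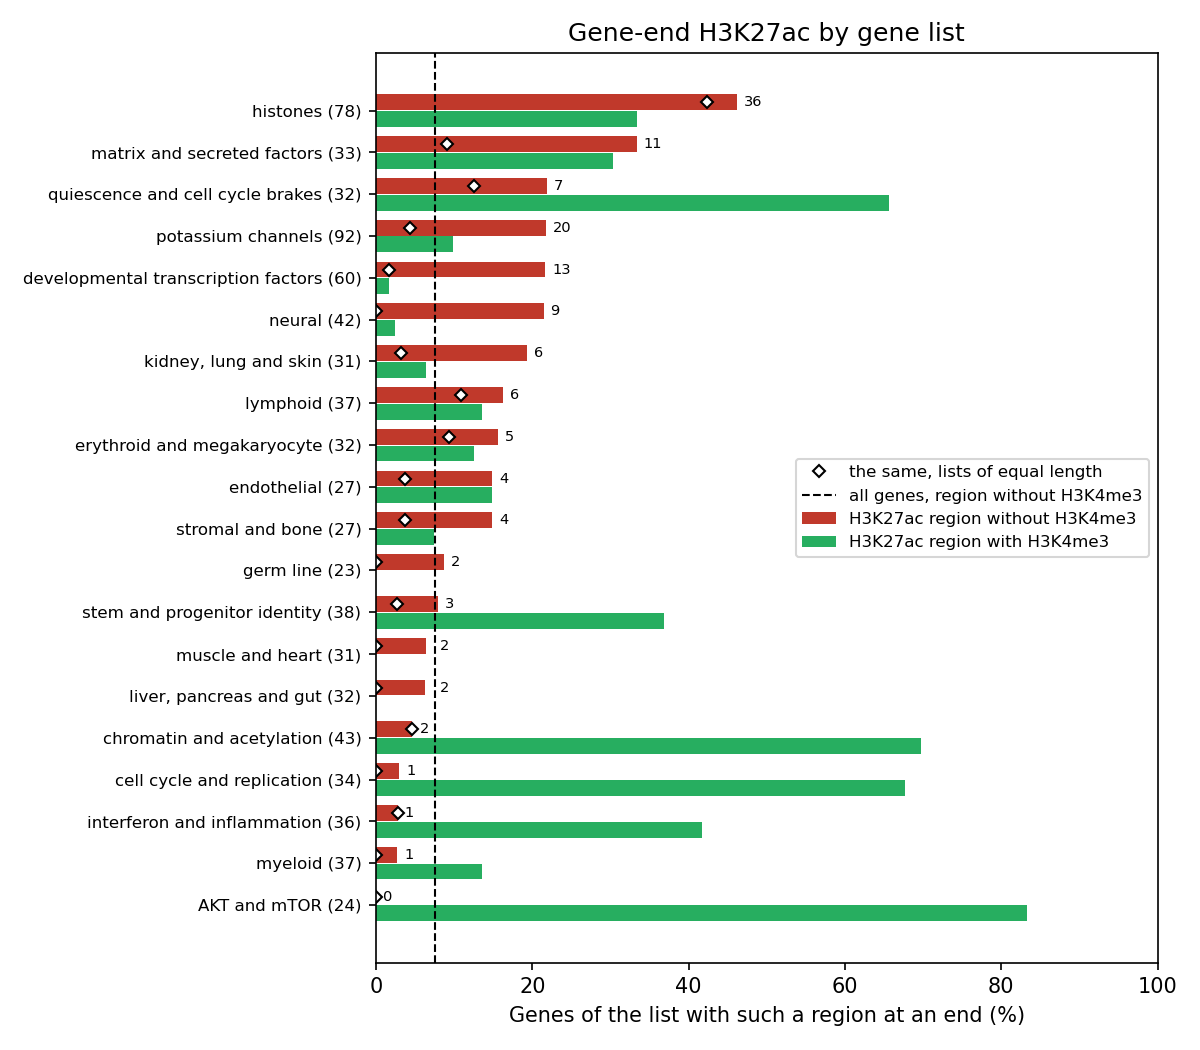
Share (%) of the genes of each list with a gene-end H3K27ac region without H3K4me3 (red, count beside the bar) or with it (green), with the number of genes found in brackets. The dashed line is the share of all genes with the full lists (7.56%, 1562 genes). Diamonds give the red share with cKO and fl lists of equal length, at which 473 of all genes had such a region. They are close to the bar for histones (33 against 36 genes) and at 0 for neural genes.

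Matrix and secreted factors were above the share of all genes (7.56%), whereas the intervals of the stromal and endothelial lists held it. Of 33 matrix and secreted factors 11 had a region (33.3%, 18.0 to 51.8), 10 cKO only, and 3 did with equal lists. H3K4me3 lay in the gene, or within 1 kb of it, in 12 of the 33 (36.4%), against 51.9% of all genes. The rule therefore bears on the share with a region. Fgf11 had 20.4, Hspg2, which encodes the basement membrane proteoglycan perlecan, 13.5, and Wnt3a, a WNT ligand, 10.6, each in cKO cells only. The Fgf11 region lay 694 bp from its start and 43 bp from the 3′ end of Tmem102. Lama5, a laminin chain, was shared, with 13.7 in cKO cells and 4.91 in fl cells. Of 27 stromal genes 4 had one (14.8%, 4.19 to 33.7), and Alpl (15.9), Sp7 (13.5), Cxcl12 (9.13) and Nes (4.97) were all cKO only. Of 27 endothelial genes 4 had one as well (14.8%), all cKO only, namely Kdr (13.8), Flt1 (12.5), Sox17 (10.3) and Erg (9.88), of which only Erg carried H3K4me3 in the gene. With equal lists Alpl and Kdr were kept. Potassium channel genes had a region in 20 of 92 cases (21.7%, 13.8 to 31.6), 19 cKO only and 1 (Kcnk4) shared, and in 4 with equal lists. H3K4me3 lay in or near 15 of the 92 (16.3%), so the rule bears on their share too. Solute carrier genes had one in 34 of 362 cases (9.39%, 6.59 to 12.9), an interval that held the 7.56% of all genes, and in 8 with equal lists. Tmem genes, a set of transmembrane proteins, had one in 32 of 231 cases (13.9%, 9.67 to 18.99) and in 9 with equal lists. Of 1104 olfactory receptor genes 4 had one, and of 354 vomeronasal receptor genes 4. Whether cells of other types in the sort had a part in these peaks was not tested.

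Stem cell genes with such a region were few, and their interval held the 7.56% of all genes. In the stem and progenitor list there were 3 of 38 (7.89%, 1.66 to 21.4), all cKO only. H3K4me3 lay in the gene, or within 1 kb of it, in 33 of the 38, so the rule itself keeps most of them out. All 3 were among these 33, and at Hlf and Gfi1 an H3K4me3 peak lay within 1 kb of the region. Hlf had a cKO −log10 q of 22.3, Gfi1, a repressor that restrains HSC cycling, 10.5, and Erg, an ETS factor of HSC and endothelium, 9.88. Hlf was the only one of the 3 kept with equal lists. Of 32 genes of quiescence and cell cycle brakes 7 had one (21.9%, 9.28 to 40.0). Klf6 had 23.8 in cKO cells and 6.89 in fl cells, and Jun had 18.5 in cKO cells and 8.17 in fl cells. Nr4a1 (17.1), Zfp36 (19.4), Tgfb1 (7.32) and the CDK inhibitor genes Cdkn1c (10.9) and Cdkn2a (10.3) were cKO only. The Zfp36 region lay 913 bp and the Tgfb1 region 148 bp from the 3′ end of the gene. Tgfb1 also had an H3K27ac region with H3K4me3 at an end. Cdkn1c and Cdkn2a carried no H3K4me3 in the gene, whereas the other 5 did. At Klf6 and Jun an H3K4me3 peak lay within 1 kb of the region. With equal lists 4 of the 7 were kept (Klf6, Jun, Nr4a1 and Zfp36).

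Among blood lineages, lymphoid genes had 6 of 37 (16.2%, 6.19 to 32.0) and erythroid and megakaryocyte genes 5 of 32 (15.6%, 5.28 to 32.8), and both intervals held the 7.56% of all genes. Cd79a, a chain of the B cell receptor, was shared, with 39.8 in cKO cells and 6.11 in fl cells, at 902 bp from its 3′ end. This region lay over a promoter of another gene, Arhgef1. Ikzf3 (21.5), Cd4 (15.8), Ebf1 (10.9) and Tcf7 (8.79) were cKO only. The Cd4 region lay 629 bp from an end of Cd4 and 131 bp from an end of Gpr162. Lck was fl only (4.91). With equal lists 4 of the 6 lymphoid genes were kept. In the megakaryocyte group Zfpm1, the GATA1 cofactor FOG1, had 25.1, and the platelet glycoprotein genes Gp5 and Gp1bb had 17.4 and 7.78, in cKO cells only. Gp9, of the same receptor complex, was shared, with 9.55 in cKO cells (80.2% down the list) and 34.2 in fl cells (6.77%). The Gp5 region lay 793 bp and the Gp1bb region 508 bp from the 3′ end of the gene. With equal lists 3 of the 5 were kept (Zfpm1, Gp5 and Gp9, the last as fl only). The myeloid list had 1 of 37 (Cebpe, 8.74, cKO only) and the interferon and inflammation list 1 of 36 (Irf2, shared, with 9.55 in cKO cells and 9.33 in fl cells). In housekeeping groups the counts were 0 of 24 AKT and mTOR genes, 1 of 34 cell cycle genes (E2f1), 2 of 43 chromatin genes (Kat2a, shared, and Tbl1xr1, cKO only), 0 of 78 mitochondrial ribosomal genes and 0 of 39 proteasome genes, beside 7.56% of all genes. Nearly all genes of these groups carried H3K4me3, so the rule itself keeps most of them out, and the intervals held 7.56% except for the mitochondrial ribosomal genes (0 to 4.62%). In these groups H3K27ac at gene ends came with H3K4me3, as in 20 of 24 AKT and mTOR genes. The E2f1 region, 250 bp from its 3′ end, lay over a promoter of Necab3. Of the genes with a region named here, Cd79a, Ebf1, Zfpm1, Irf2, Kat2a and Tbl1xr1 had an H3K4me3 peak within 1 kb of it. None of Akt1, Akt2, Ccnb2, Cdkn1a, Dek and Ncor1 had an H3K4me3-free region.

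The strongest cKO-only regions lay at other genes. Entpd4b and Entpd4, closely related genes for a Golgi nucleotidase on chromosome 14, had 52.1 and 51.9, at 5.31% and 5.39% of the cKO list, with no fl peak. Rmi2, of the complex that dissolves recombination intermediates, had 40.7, Nudt14 36.1, Dact3 32.1, Prag1 32.0 and Wdr41 31.5. The other 3 of the top 10 were Gm13287 (41.7), Gm13278 (36.8) and Gm13272 (34.4), which lie beside Ifnz, an interferon gene. That stretch, chr4:88773545-88806165, held 12 members in all, 9 cKO only and 3 shared, the longest run of these regions with gaps under 50 kb. In it the regions of Gm13272, Gm13279, Gm13285, Gm13287, Gm13289 and Gm13290 lay over copied promoters as defined below. Their values and classes are therefore uncertain. By chromosome the regions made up 6.40% (chromosome 3) to 11.1% (chromosome 7) of all H3K27ac regions.

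Several of the strongest shared regions lay over copied promoters as defined below. They were those of Gm3435 with Gm3448, Gm3417 with 9030025P20Rik, Zfp433 and Gm32687. The region of Gm3435 and Gm3448 had 78.4 in cKO cells and 22.9 in fl cells, and that of Gm3417 and 9030025P20Rik had 78.0 in cKO cells and 24.0 in fl cells. Olfr38, an olfactory receptor gene, had 63.7 in cKO cells and 34.0 in fl cells, 657 bp from its 3′ end. Mtln, which encodes a mitochondrial micropeptide, had 57.8 in cKO cells and 31.6 in fl cells, with an H3K4me3 peak 720 bp away. Zfp433 and Gm32687 had 53.3 and 54.4 in cKO cells and both had 13.7 in fl cells. Fam177a and Fam177a2 had 49.6 and 47.0 in cKO cells, against 10.8 and 13.7 in fl cells. The fl-only regions were weaker within their own list, among them Gm2046 (14.0), Nme6 (11.9), Prh1 (10.2) and Rspo1 (10.1), and Gm2046 was already 33.1% down the fl list.

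Copied promoters were more frequent among shared regions. A promoter window was called copied when most of its words of 50 bases also stood in a window more than 5 kb away or on another chromosome. Such windows made up 18 of 111 promoters of shared H3K4me3-free regions (16.2%, 9.90 to 24.4), 13 of 695 of cKO-only ones (1.87%, 1.00 to 3.18) and 13 of 6068 of gene-end regions with H3K4me3 (0.214%). For H3K4me3-free regions as a whole they made up 31 of 817 (3.79%, 2.59 to 5.34). That was near the share over all promoters, 635 of 20085 (3.16%), and promoters with neither mark had 5.73%. By peaks over the window itself, of 48 copied promoters with H3K27ac, 33 (68.8%, 53.7 to 81.3) had no H3K4me3, against 1173 of 7712 (15.2%) that were not copied. How the authors treated reads that match several places is not given in the sources used here, so values at copies are uncertain, and whether this had a part in the missing H3K4me3 was not tested. Without the 27 regions over copied promoters the cKO-only share was 87.5%.

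DEK and H3K9ac peaks, neither of which entered the rule, overlapped few of these regions, and few gene-end regions with H3K4me3 as well. On chromosomes 1 to 19 the DEK lists held 1962, 2008 and 5834 peaks. The H3K9ac lists held 3329 cKO and 2099 fl peaks, against 15422 cKO and 9774 fl H3K27ac peaks. With lists this short, a low overlap says little about the regions themselves. A DEK peak of any library overlapped 4 of 1442 (0.277%, 0.0756 to 0.709), at Shcbp1l, Stum, Wls and Gp9. The share per DEK library was 0.139% ± 0.0693 (SD, n = 3), against 0.0726% ± 0.0384 for gene-end regions with H3K4me3 and 3.75% ± 3.37 for regions away from gene ends without it. An H3K9ac peak overlapped 8 (0.555%, 0.240 to 1.09), all 8 with a cKO peak and 1 (Wls) with an fl peak too. Gene-end regions with H3K4me3 had an H3K9ac peak in 1.29% and regions away from gene ends without it in 3.17%. They were at Pigt, Wls, Kdr, Kcp with Atp6v1fnb, Gp9, Srp54b, Srp54c and Rab26. Gp9 and Wls had both DEK and H3K9ac, and each was shared. The DEK and H3K9ac lists come from HSC, a smaller part of the LSK gate in which H3K27ac was profiled.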

How the data were processed

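CUT&Tag peak lists of 9 mouse libraries were used, 1 list per library as deposited. The build is mm10 and the tools are MACS2, Bowtie2 and Picard, per the submitters' processing notes. Tool versions, step order, a control and the calling threshold are not given in those sources. The deposited score equals the −log10 p times 10. The deposited fold is a ratio of the summit to the background of the same library. The q-value and p-value of a peak, as −log10, are the authors' own. The deposited summit offset gave each summit. All of these served to order or select peaks of 1 list; cKO and fl values given side by side are descriptions and not on a common scale. The lists hold no counts, so depth is unknown. In the DEK lists 12 rows with a missing strand mark, a score off by more than 1 or out of coordinate order were left out, and 0 such rows were in the 6 histone lists. The row names of DEK replicate 3 carry a Flag stem, but its label says DEK and was taken as given.

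Genes and promoters are from RefSeq (GRCm38.p6); 16457 of 20665 protein-coding genes, and 1217 of the 1562 with a region, had a promoter window, which gave the strand. Intervals are Clopper-Pearson, at 95%. No test was run between genotypes, since each mark has 1 library per genotype. Regions, gene lists and gene families were chosen with earlier results of these data known, so counts over them are descriptions. A naming rule covered the 10 strongest regions of each class and up to 6 genes of each list by −log10 q. It also covered the 6 genes the study names and values beside the limits. Some genes under it were left out of the text. Other genes were chosen after their values were seen, such as family members and those with DEK or H3K9ac. Olig1, Neurog2, Hoxd13, Tlx3 and Tgfb1 were also named outside the rule. A gene that the rule covers is not reported here. Alternatives changed the window, the peak threshold, the list length, the overlap, the H3K4me3 distance and the gene set. The overlap code was tested on simulated data. Python 3.11.15, numpy 2.4.6, pandas 2.3.3 and scipy 1.17.1 were used.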

Additional observations from a re-analysis of the deposited data

Results flagged for a closer look

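Chromosomes X and Y lay outside the comparisons, which used chromosomes 1 to 19, and they held signal of the same kind. Chromosome X had 43 gene-end H3K27ac regions without H3K4me3 among its 835 regions, of which 33 were cKO only, 10 shared and 0 fl only. Chromosome Y had 8 among its 216 regions, of which 0 were cKO only, 6 shared and 2 fl only.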

How the results depend on the processing

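Of 76 recomputed values 62 stayed within their interval or within 1.5 times the main count, and 14 moved. Lists of equal length moved most: the number of regions became 414, the cKO-only share 53.1%, the fl-only share 20.8%, the cKO-only share with H3K4me3 33.5%, the DEK share 0.725%, the H3K9ac share 1.45%, genes with H3K4me3 elsewhere 27.3%, genes of the 6 other-tissue lists 2 in place of 34, and promoters with a CpG ratio of at least 0.6 84.0%. With peaks of a −log10 q of at least 5, the cKO-only share with H3K4me3 was 47.6%. A window of 2 kb gave a DEK share of 0.778% and 22.5% of genes with H3K4me3 elsewhere, which was 15.6% with a window of 500 bp and 13.1% with no H3K4me3 peak within 1 kb. Leaving out each DEK library in turn gave DEK shares of 0.139% to 0.277%. Counts of list genes, promoter shares, the omission of copied promoters and the irregular DEK rows were added as alternatives after the data were seen. No paired analysis was possible because each mark has 1 library per genotype and DEK has no cKO library. Equal length removes the weakest cKO peaks by construction; unknown depth limits every cKO-only call, and an absent peak is not absent signal.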
